A study of Mus musculus with 8 samples.

Results

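The region described is a 400 kb window of mouse chromosome 16, from 95.85 to 96.25 Mb of the mm9 genome, which holds the gene Ets2 and the stretch beyond it. All 25 H3K27ac peaks overlapping the window were taken, of 22731 peaks in the whole table and 845 on chromosome 16. H3K27ac, an acetylation of histone H3 found at active promoters and enhancers, was measured by CUT&RUN, which uses an antibody to bring a nuclease to a chromatin mark and frees the DNA around it. The groups were 3 libraries of control AKP colon cancer organoids and 3 of Gata6KO AKP organoids, so the AKP genotype was shared by both. The labels name C57Bl6 recipient mice for every sample. They do not give the alleles behind AKP, the design of the Gata6 knockout, whether it is 1 clone, or whether replicates were separate cultures, so the spread between libraries may be technical. The 8 samples of the series also include 1 H3K4me3 and 1 IgG library of control organoids, which were not analysed here, so no background was subtracted.

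Ets2 encodes a transcription factor of the ETS family, whose DNA-binding domain recognises a GGAA core. The protein is phosphorylated by the ERK kinases, and extra gene copies of Ets2 lower tumour number in mice with an Apc mutation. GATA6, removed in the knockout, is a zinc finger factor of the gut epithelium. In the RefSeq order of GRCm38.p6, Ets2 lies between the protein-coding genes Kcnj15, an inward rectifier potassium channel, and Erg, another ETS factor, on one side, and Psmg1, a proteasome assembly chaperone, and Brwd1, a bromodomain and WD repeat protein, on the other. Between Ets2 and Psmg1 the annotation lists the long non-coding RNAs Gm32130, Gm41509, 1600002D24Rik and Gm41508 and the pseudogene Gm6599. That assembly is not the one of the peaks, so only the gene order was taken from it, and which peak lies at which of these genes was not analysed here.

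The sequence shown is the promoter of Ets2, since the peak with the most acetylation at the gene runs across the start of its interval in mm9; whether the promoter lies under that peak was not tested. It gives the 250 bases before the RefSeq start site (GRCm38.p6, plus strand, 5′ to 3′), with each CpG in capitals.
Ets2 promoter: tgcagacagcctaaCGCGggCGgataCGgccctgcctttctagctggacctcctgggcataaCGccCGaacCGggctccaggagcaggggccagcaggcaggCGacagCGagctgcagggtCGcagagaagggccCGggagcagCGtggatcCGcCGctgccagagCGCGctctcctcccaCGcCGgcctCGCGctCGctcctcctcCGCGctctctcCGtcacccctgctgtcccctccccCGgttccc
It holds 25 CpG and is 71.6% G or C, while the median of the 32851 promoters in the RefSeq table is 6 CpG and 52.4%. At least as many CpG are found in 10.7% of these promoters, a count chosen after the sequence was seen. On either strand there was no match to AGATAA or TGATAA, forms of the GATA motif held by 9.99% and 7.94% of promoters, to CGGAAG, an ETS form held by 13.6%, or to TGANTCA, the AP-1 form held by 6.75%. These forms are therefore not in this stretch. The shorter cores GATA, on the plus strand, and GGAA, on the minus strand, do occur in it. Neither says anything of binding by the factors. On the plus strand, positions above the gene are downstream of it.

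Reads in peaks numbered 5141856 to 7026388 per library, and the median peak held 144 to 196. Levels are CPM, the reads of a peak scaled to a fixed total of reads in peaks, after edgeR's TMM scaling, so they are relative and cannot show a change common to the whole set. A peak was called where edgeR's quasi-likelihood test over all 22731 peaks gave an adjusted p under 0.05 (Benjamini-Hochberg), as 11.6% of all peaks did with a higher and 10.2% with a lower level in the knockout. The window was chosen by its higher counts in knockout than in control libraries beyond Ets2, so the folds and calls below describe it and test nothing. Cells that carry more of the mark and more cells that carry it cannot be told apart in such bulk libraries.

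Acetylation at Ets2 itself was near to equal in both groups, whereas the stretch beyond it carried more in the knockout. The Ets2 interval is the approximate place of the gene in mm9, 20 kb given with the choice of the window, and 3 peaks overlap it. These peaks summed to 123, 126 and 125 CPM in control libraries 1 to 3 and to 128, 133 and 141 CPM in knockout libraries 1 to 3. The means were 125 ± 1.34 and 134 ± 6.86 CPM (SD, n = 3 each), a ratio of 1.08. The knockout sums lay above the control sums, but none of the 3 peaks was called, which does not show that they were equal. The 19 peaks that start beyond the interval, from 95988301 to 96185250, summed to 618, 627 and 663 CPM in control and to 1034, 989 and 1004 CPM in knockout libraries. Their means were 636 ± 23.7 and 1009 ± 22.6 CPM, a ratio of 1.59, and the groups lay far apart. Over the whole window the sums were 848 ± 24.4 and 1242 ± 16.6 CPM, a ratio of 1.46.

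**Figure D1:**
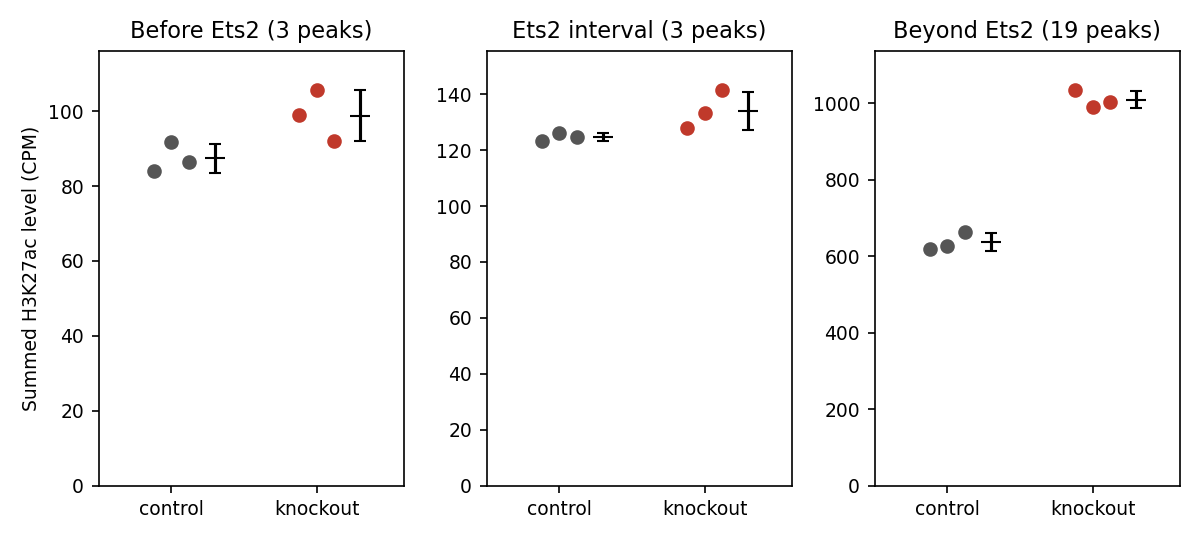
Summed H3K27ac level (CPM, linear axes from 0 with their own scale in each panel) of the peaks before, over and beyond the Ets2 interval, with 1 point per library and the mean ± SD of 3 libraries beside them. Control and knockout lie at 125 and 134 CPM over Ets2 and at 636 and 1009 CPM beyond it.

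Shares of the window's reads within each library need no scaling between libraries. They come from the counts that chose the window, so they describe it and support nothing further. Peaks beyond Ets2 took 74.9%, 74.2% and 75.9% of the window's reads in control libraries and 82.0%, 80.6% and 81.1% in knockout libraries. The share over the Ets2 interval averaged 14.7% ± 0.389 in control libraries and 10.8% ± 0.646 in knockout ones (SD, n = 3 each), a lower share beside a level of 125 and 134 CPM, since the window's total was larger. The level beyond the gene was 4.98 to 5.32 times that over it in control and 7.10 to 8.09 times in knockout libraries, and the ranges did not overlap.

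Of the 25 peaks, 18 were called higher and 0 lower, against the 11.6% and 10.2% of all peaks. Since the same contrast chose the window, nothing is read from that gap. Of the 18, 17 lay beyond Ets2, where 19 of 19 peaks had a log2 fold change above 0, and 1 lay before the gene. The median log2 fold change was 0.60 beyond Ets2, 0.13 over the interval and -0.01 over all peaks. In 19 of the 25 peaks every knockout library lay above every control library, as in 17.5% of all peaks. Neighbouring peaks of 1 domain are not independent of each other, so their number is no measure of replication.

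**Figure D2:**
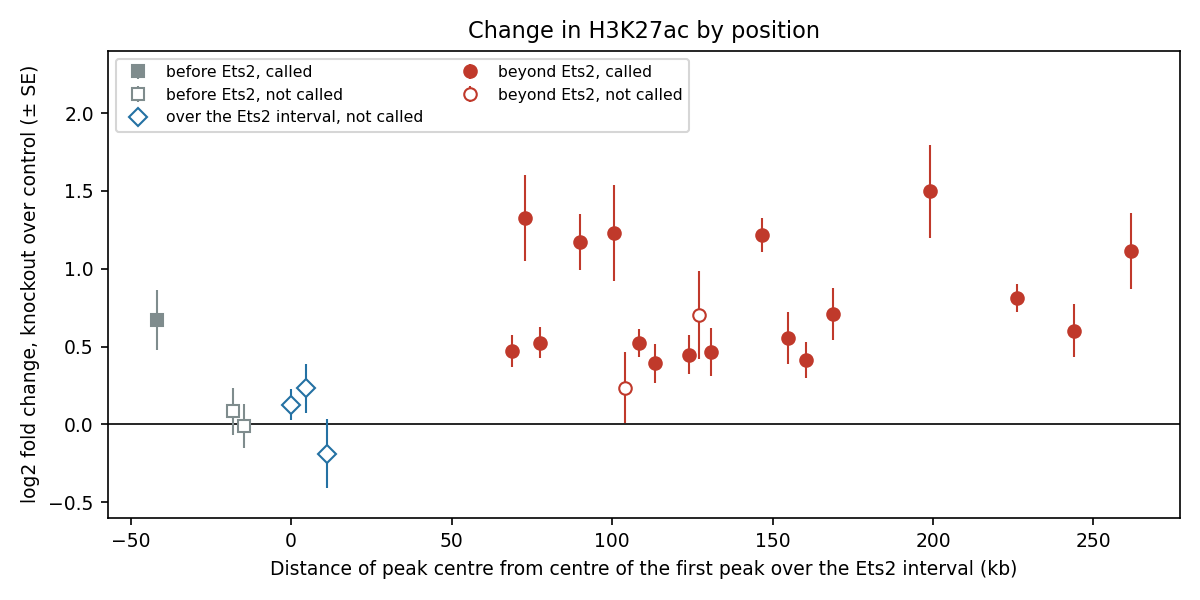
Log2 fold change of H3K27ac, knockout over control, with its standard error at each of the 25 peaks, against the distance of the peak centre from that of the first peak over the Ets2 interval (kb). Filled symbols are peaks called by edgeR; the 3 peaks over Ets2 are open and lie between -0.19 and 0.23, while the 19 peaks beyond it lie between 0.24 and 1.496.

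Over the gene, the peak at chr16:95919712-95925176 was the strongest and spans the start of the interval. It held 79.3, 74.4 and 80.5 CPM in control libraries and 81.5, 89.2 and 85.3 CPM in knockout libraries, a log2 fold change of 0.13 ± 0.10 (SE). The knockout libraries were all slightly higher, and the lowest of them exceeded the highest control library by less than the spread within either group. The next peak, at chr16:95925593-95928296, held 26.3, 31.2 and 24.6 CPM in control and 32.4, 26.8 and 36.6 CPM in knockout libraries. Here the groups overlapped, and the log2 fold change was 0.23 ± 0.16 (SE). The last, at chr16:95933017-95934421, went the other way in its mean, with 17.7, 20.4 and 19.5 CPM against 13.9, 17.1 and 19.6 CPM and a log2 fold change of -0.19 ± 0.22 (SE). Its groups overlapped too, so no direction is given for Ets2.

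Before the gene, the 2 nearest peaks had the smallest differences of the window. The peak at chr16:95906119-95909228 held 37.7, 38.8 and 40.1 CPM in control and 41.4, 42.4 and 32.1 CPM in knockout libraries, a log2 fold change of -0.01 ± 0.14 (SE). The peak at chr16:95903345-95905171 held 30.3, 33.9 and 31.8 CPM against 35.5, 33.7 and 32.4 CPM, a log2 fold change of 0.08 ± 0.15 (SE). Both overlapped between groups, and with the peaks over Ets2 they form a block of 5 peaks with gaps of at most 10483 bp. The summed level of that block was 195 ± 3.76 CPM (SD, n = 3) in control libraries and 207 ± 2.38 CPM (SD, n = 3) in the knockout, a ratio of 1.06. Farther out, the peak at chr16:95879809-95881609 was called higher, with 14.6 to 19.1 CPM in control and 21.9, 29.4 and 27.6 CPM in knockout libraries.

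A gap of 53879 bp without a peak separates this block from the gained stretch. The next 15 peaks form 1 block of 104 kb, from 95988301 to 96092676, with gaps of at most 11463 bp. The block summed to 516, 506 and 543 CPM in control and to 823, 787 and 795 CPM in knockout libraries, a ratio of 1.54, and 13 of its 15 peaks were called higher. Beyond it come a lone peak at chr16:96120748-96122569, a pair from 96144683 to 96168011 with a ratio of 1.70, and a lone last peak at chr16:96183051-96185250. Each of these 4 was called higher.

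**Figure D3:**
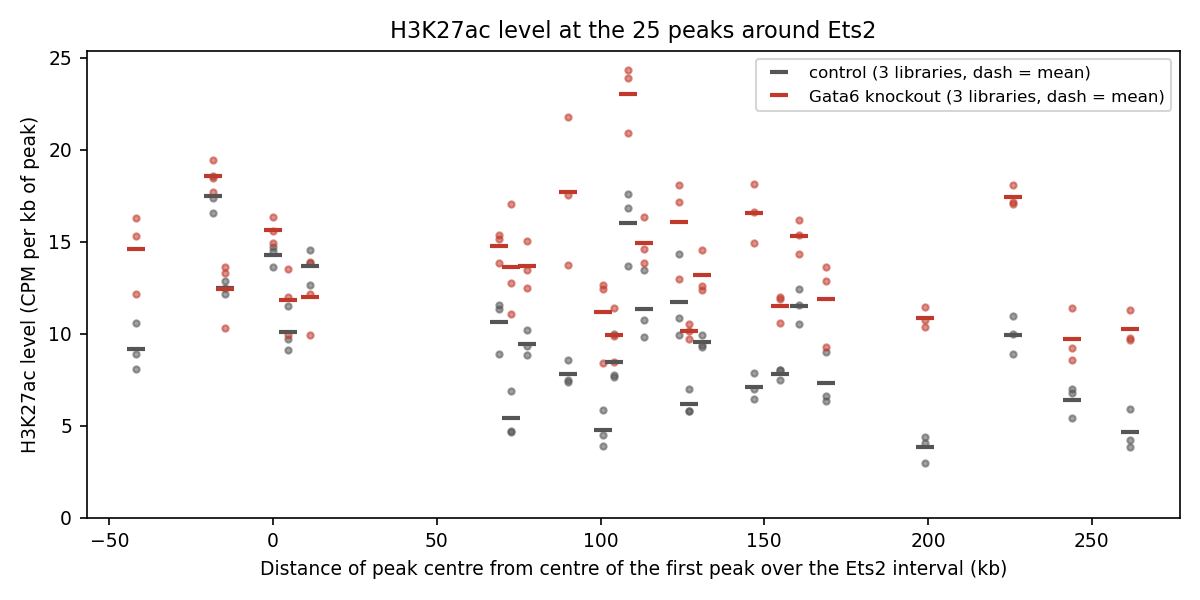
H3K27ac level per kb of peak (CPM per kb, linear axis from 0) in each library at the 25 peaks, against distance from the centre of the first peak over the Ets2 interval (kb), with points for libraries and dashes for group means. Beyond the gap that follows Ets2, knockout means lie between 9.73 and 23.0 CPM per kb and control means between 3.82 and 16.03.

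Among the 6 largest folds of the window, the peak at chr16:96066198-96072306 combined a large fold with a high level. It went from 39.3, 42.8 and 48.1 CPM in control to 111, 102 and 91.1 CPM in knockout libraries, a 2.33-fold difference with a log2 fold change of 1.21 ± 0.11 (SE). Every knockout library held well over the highest control library. This peak alone gave 15.5% of the CPM gained beyond Ets2.

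The other 5 of these folds belonged to narrow peaks with few reads in control, from 28 to 114 per library. The largest was that of the lone peak at chr16:96120748-96122569, with 8.001, 5.45 and 7.45 CPM in control and 20.9, 19.6 and 18.9 CPM in knockout libraries, a log2 fold change of 1.496 ± 0.30 (SE). Counts behind it were 46, 28 and 52 reads against 120, 108 and 118. The peak at chr16:95994418-95995927 held 10.4, 7.01 and 7.16 CPM against 25.8, 16.7 and 19.2 CPM, a log2 fold change of 1.33 ± 0.28 (SE). Both had separate groups, with a wide spread among the knockout libraries in the latter. Whether any of the 5 narrow peaks entered the shared set only through knockout libraries was not tested. The way peaks were combined was not given.

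At chr16:96022335-96023930 the levels were 9.39, 6.23 and 7.16 CPM in control and 20.2, 13.4 and 19.9 CPM in knockout libraries, a log2 fold change of 1.23 ± 0.31 (SE). At chr16:96011613-96013510 they were 14.3, 14.0 and 16.3 CPM against 33.3, 26.1 and 41.4 CPM, a log2 fold change of 1.17 ± 0.18 (SE). The last peak of the stretch, at chr16:96183051-96185250, held 8.52, 9.35 and 13.0 CPM against 21.2, 24.9 and 21.5 CPM, a log2 fold change of 1.115 ± 0.24 (SE). Groups were separate at all 3. With offsets that follow the mean count, the first of them had a log2 fold change of 0.81 in place of 1.23. The second had 1.20 and the third 0.94. Under that setting it was 1.095 at chr16:96120748-96122569 and 1.02 at chr16:95994418-95995927. The largest was then 1.24, at chr16:96066198-96072306, so the order of these folds depended on the scaling. All 5 narrow peaks remained called.

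The 2 peaks of the stretch with the highest control level had smaller folds than the 6 above. They were 1.75 and 1.44, against 1.59 for the stretch as a whole. The peak at chr16:96144683-96152315, the widest of the window at 7633 bp, held 67.8, 83.7 and 76.2 CPM in control and 131, 130 and 138 CPM in knockout libraries, a 1.75-fold difference with a log2 fold change of 0.81 ± 0.09 (SE). It gave 15.3% of the CPM gained beyond Ets2, second to the peak at chr16:96066198-96072306. Picked as the largest gains in CPM, which fixes that their part is large, both together made up 30.8% of the gain and 18.8% of the control level. The peak with the highest control level of the window, at chr16:96028151-96033334, held 71.0, 87.2 and 91.1 CPM against 124, 108 and 126 CPM, a log2 fold change of 0.52 ± 0.09 (SE). Control and knockout libraries did not overlap at either. In all, 5 peaks of at least 5 kb gave 55.2% of the gain from 52.4% of the control level, and 6 peaks under 2 kb gave 17.0% from 10.1%.

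Beyond Ets2, 2 of 19 peaks were not called. At chr16:96025565-96027475 the groups overlapped, with 14.8, 19.1 and 14.6 CPM in control and 16.2, 18.9 and 21.8 CPM in knockout libraries, a log2 fold change of 0.24 ± 0.23 (SE). It lies 675 bp before the peak with the highest control level. At chr16:96048700-96050378 the groups were separate, with 9.74, 9.74 and 11.7 CPM against 17.1, 16.3 and 17.6 CPM, and the log2 fold change was 0.70 ± 0.28 (SE). These 2 peaks were singled out after their values were seen. The edgeR adjusted p of the second was 0.056, close to the threshold. With offsets that follow the mean count it was 0.31, at a log2 fold change of 0.41. DESeq2 and the edgeR fit with the replicate number as a block each called 18 of the 19 peaks, in place of 17.

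Per kb of peak, the stretch beyond Ets2 started lower than the gene and ended near it. Control libraries held 9.31 CPM per kb over the 68.3 kb of peaks beyond Ets2 and 13.0 CPM per kb over the 9.57 kb of peaks on the gene. In knockout libraries these levels were 14.8 and 14.0 CPM per kb. The median control level beyond Ets2 was 7.84 CPM per kb, against 10.7 over all peaks. The median width there was 2897 bp, against 2690 bp over all peaks. Across the table a low control level went with a gain, and the fold itself contains the control level. Among the 20% of peaks with the lowest control level per kb, 31.2% were called higher, and 10 of the 19 peaks beyond Ets2 were in that class, 9 of them called. In the other classes together 9 peaks lay beyond Ets2, with log2 fold changes of 0.24 to 0.81. Of these 9 peaks 8 were called higher, where 5.61% to 8.97% of all peaks of those classes were. The same contrast chose the window, so nothing is read from these shares.

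Sorted by the level over all 6 libraries, knockout included, the peaks beyond Ets2 fell in each 20% class of the table. The class of lowest level held 5 of them, with a median log2 fold change of 1.115 against 0.06 over all peaks of the class, and 4 were called higher, where 15.6% of the class were. The second class held 4, of which 3 were called, where 9.41% of the class were. The third held 1, which was called, where 8.84% of the class were. The fourth class held 6, all called higher, where 10.6% of its peaks were called so. The class of highest level held 3, with log2 fold changes of 0.45 to 0.81 and a class median of -0.0022, and all 3 were called, where 13.5% of the class were. The level over all 6 libraries contains the knockout counts that chose the window, so these shares describe it and test nothing.

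**Figure D4:**
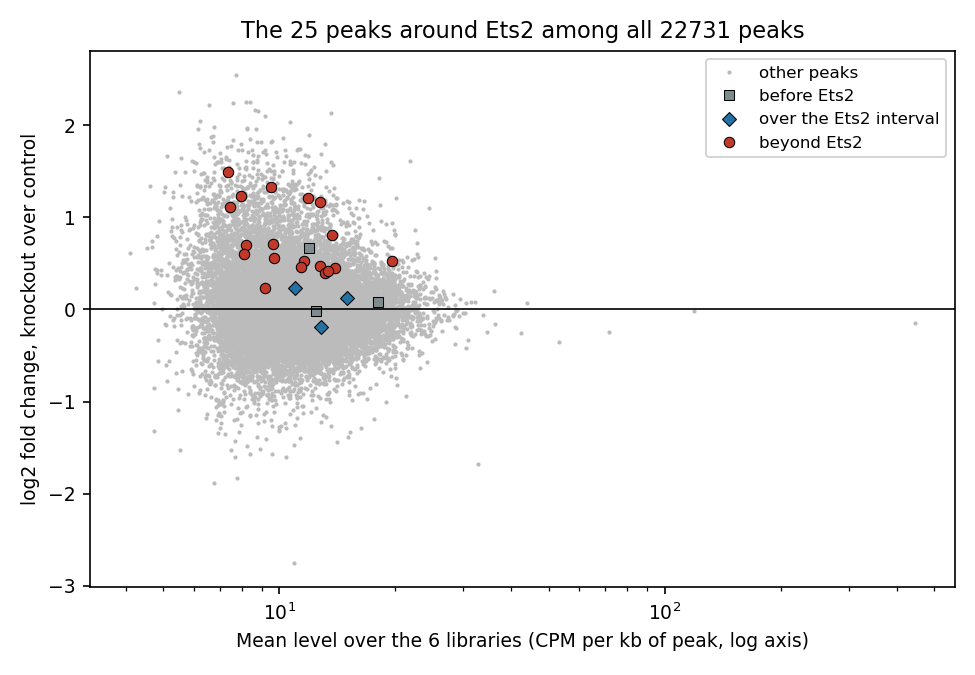
Log2 fold change, knockout over control, against the mean level over the 6 libraries (CPM per kb of peak, log axis) for all 22731 peaks (grey) and the 25 peaks around Ets2 (coloured by place). The 19 peaks beyond Ets2 lie above 0, at levels between 7.35 and 19.5 CPM per kb where all peaks run from 4.09 to 447. The 3 peaks over the gene lie among the mass of other peaks.

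The window was isolated on both sides. The first peak before it, at chr16:94907351-94910936, lay 968872 bp from the nearest peak of the window and held 71.3, 73.6 and 65.6 CPM in control and 57.8, 72.6 and 64.5 CPM in knockout libraries, a log2 fold change of -0.11 ± 0.11 (SE). The first peak after it, at chr16:96429916-96432772, lay 244665 bp away and held 17.4, 23.6 and 21.2 CPM against 30.3, 21.0 and 22.4 CPM, a log2 fold change of 0.25 ± 0.18 (SE). Neither was called, and both overlapped between groups. No peak lay in the 400 kb before the window. The summed level of the 10 peaks in the 400 kb after it was 337 ± 24.3 CPM (SD, n = 3) in control libraries and 323 ± 20.02 CPM (SD, n = 3) in the knockout. On chromosome 16 as a whole, 11.7% of peaks were called higher and 9.59% lower, and the median log2 fold change was -0.01.

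When the genome was divided into tiles of 400 kb in register with the window, 68 of the 3243 tiles with a peak held 25 or more peaks, the window included. Among the 189 tiles with at least 20 peaks, the summed level was 1.46 times control in the window and 1.49 times in 1 tile that stood above it, on chromosome 9 from 75050000 to 75450000. No other tile of the 189 had as many peaks called higher or gained as much CPM, 394 in the window. The tile on chromosome 11 from 108650000 to 109050000 followed, with 17 of 24 peaks called higher and a ratio of 1.42. The window was picked for its gain, so these ranks only place it, and the limit of 20 peaks was set after the data were seen.

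The patterns most like that of the summed Ets2 interval over the 6 libraries were sought among 11353 peaks outside the window at or above the median level, 27.7 CPM. Pearson's r of log2 CPM was highest for the peaks at chr2:158325332-158329385 (0.987), chr17:71055387-71060583 (0.985) and chr2:17648500-17654372 (0.984). With 6 points in 2 groups and this many peaks searched, such values are reached easily and are given as a description. Pearson's r takes no account of the size of a change. The ratios of knockout to control were 1.31, 1.14 and 1.26 in that order, against 1.08 for the Ets2 interval. Both peaks on chromosome 2 were called higher, and the peak on chromosome 17 was not called. In each of these 3 peaks knockout library 3 was the highest, as in the Ets2 sum, which their choice by correlation made likely. At the strongest peak over Ets2, knockout library 2 was the highest, with 89.2 CPM against 85.3 CPM in knockout library 3.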

How the data were processed

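The file deposited by the authors holds unnormalized counts for 6 H3K27ac libraries over 1 shared set of mm9 peaks, with the peak width in bp. Bowtie, Picard, SAMtools, SEACR and bedtools are named in the submitters' processing notes, without versions or roles; for the counting program and the way peaks were combined, nothing was given in the sources used here. Between 82.8% and 88.9% of counts per library were even, so read mates may have been counted separately, which widens counting error.

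The comparison was fitted on all 22731 peaks, none of which a low-count filter removed, with edgeR 4.0.16 in R 4.3.3 (TMM, quasi-likelihood, group as the only term, two-sided). Standard errors came from the F statistic. On simulated data for this comparison over 22731 peaks, 48 of 100 changes of 1.5-fold and 99 of 100 of 2-fold were recovered, with 5 false calls. Every simulated peak had the same dispersion, and only 200 peaks, drawn at all levels, were changed. The rates may therefore not hold for the weak peaks of the window. Library pairs within a group had a chi-square per degree of freedom of 1.53 to 1.84 on halved counts, against 3.97 to 4.85 between groups, so no copy was seen.

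The window, the members and the lists were chosen with earlier results of these data known. Named with values per library were the peaks over the Ets2 interval, the 6 largest absolute log2 fold changes, the 3 highest control levels, the 2 smallest changes and the first peak outside on each side. The division by level per kb and the comparison of widths were chosen after the data were seen. A list of ETS family genes was not tested, since no mm9 annotation was used here. Alternatives were DESeq2 1.42.0, other scalings, trended offsets (limma 3.58.1, loess span 0.3), halved counts, chromosome 5 left out, each library left out in turn and the replicate number as a block.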

Additional observations from a re-analysis of the deposited data

How the results depend on the processing

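Under DESeq2, the other scalings, trended offsets, no filter, halved counts and the fit without chromosome 5, 18 or 19 peaks of the window were called higher and 0 lower, and the 18 calls were shared by each. With the replicate number as a block, 19 were called higher, the log2 ratio of the window sum was 0.55, and no call was lost. Same-numbered libraries deviated together at r = 0.00595 to 0.0662, against -0.0487 to 0.0403 for other pairs, so the numbers do not show a pairing, and some libraries correlated better with another number. In fits that left out 1 library, 15 to 18 peaks were called higher, and a threshold of 0.01 gave 16. The log2 ratio beyond Ets2 ranged from 0.65 to 0.70 and that over the Ets2 interval from 0.07 to 0.14 over all settings, the lower value without Gata6KO replicate 3. No setting called a peak over the interval higher. The 13 peaks of the window named by rule kept their side of the threshold in all 195 values under 15 alternatives, which their choice made likely. Their signs were not all kept. At chr16:95906119-95909228 the log2 fold change was -0.01 in the main fit and 0.11 without Gata6KO replicate 3. Joining gaps of at most 5 kb gave 12 blocks and of at most 25 kb gave 3, in place of 6, by construction. Low reads limit the narrow peaks, whose standard errors reached 0.31.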

Other observations

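Past the window, the 10 peaks of the following 400 kb did not share 1 direction. A pair of weak neighbours was called higher: the peak at chr16:96497897-96501520 held 12.52, 14.0 and 11.7 CPM in control and 20.5, 22.1 and 23.7 CPM in knockout libraries, and the peak at chr16:96503431-96505677 held 10.4, 8.57 and 9.17 CPM against 19.8, 20.3 and 23.1 CPM. Their groups were separate, with log2 fold changes of 0.80 ± 0.23 and 1.17 ± 0.26 (SE). Another 2 peaks were called lower. The one at chr16:96590467-96595658 held 68.7, 76.1 and 57.3 CPM in control and 49.4, 42.1 and 50.7 CPM in knockout libraries, and the one at chr16:96627399-96630189 held 31.8, 32.7 and 31.4 CPM against 26.3, 23.9 and 16.03 CPM. The remaining 6 were not called. Over all peaks 11.6% were called higher and 10.2% lower, so nothing is read from 2 calls each way among 10. The control level per kb of the gained pair lay at percentiles 0.28 and 0.70 of all peaks. Among the 20% of peaks with the lowest such level, 31.2% were called higher. The called peaks were singled out after their values were seen.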
